A study of Mus musculus with 4 samples.

Results

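Outer promoter regions are described here, the stretch between 1 and 3 kb from a transcription start on either side, where H3K9me3 differed between microglia without and with Arid1a. Members were all rows of the authors' deposited lists annotated as promoter at 1 to 2 kb or at 2 to 3 kb. They numbered 424 of 5432 regions, with 270 in the list of regions higher in knockout (KO) cells and 154 in the list of regions lower in KO cells. They belonged to 419 genes. No region between 1 and 3 kb carried another class. This is no separate check, since class and distance come from the same annotation.

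H3K9me3 was profiled by CUT&Tag, which cuts and tags DNA at antibody-bound nucleosomes, in microglia sorted from the telencephalon of C57BL/6 embryos. Their stage is labelled E14, and the protocol text has day 14.5. Control embryos were Arid1afl/fl (labelled WT), with a floxed Arid1a gene, and KO embryos were Arid1acKO-Cx3cr1, in which the floxed gene was removed in cells that express Cx3cr1. Cx3cr1 is active in microglia and in other macrophages and monocytes. There was 1 H3K9me3 library of 100000 cells and 1 IgG library per genotype, so no difference has a replicate check and no test between genotypes was made. The labels name neither the sex of the embryos nor any pooling of them. More marked cells and more mark per cell cannot be told apart. No value in the lists checks the sort or the loss of Arid1a. The only measurement per region is a peak score of unstated scale, given by the authors. It ranks regions within a list and is not the size of a change. Coordinates are those of the lists, read as GRCm38 because the listed transcripts match that build, while the submitters' processing notes name mm9. If the regions were placed on mm9, the distances and the gene beside each region would not hold.

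H3K9me3 is trimethylation of lysine 9 of histone H3. The mark is laid down by SUV39H and SETDB1 enzymes, is bound by HP1 proteins, and is known from satellite repeats, retroelements and silent gene families. Near a gene the nucleosome-depleted start itself usually carries little of any histone methylation, and the flanks at 1 to 3 kb hold flanking nucleosomes, upstream enhancers and the beginning of the first intron. ARID1A is the DNA-binding subunit of the BAF form of the SWI/SNF remodelling complex.

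The genome sequence under the regions was not analysed here. RefSeq start windows (250 bases before to 50 bases after a start, GRCm38.p6) were available, and 3 outer promoter regions reached into one. They are shown because their capitals are the bases that lie inside a listed region. The region of Hopx, a homeobox gene, was in the higher list and ran into the start window of its antisense neighbour Hopxos. The region of Amn was in the lower list and covered part of the start window of Gm51960. The region of 4930447F24Rik was in the lower list and ran into the window of another RefSeq start of the same gene.
Hopxos start window, chr5:77098580-77098879, plus strand: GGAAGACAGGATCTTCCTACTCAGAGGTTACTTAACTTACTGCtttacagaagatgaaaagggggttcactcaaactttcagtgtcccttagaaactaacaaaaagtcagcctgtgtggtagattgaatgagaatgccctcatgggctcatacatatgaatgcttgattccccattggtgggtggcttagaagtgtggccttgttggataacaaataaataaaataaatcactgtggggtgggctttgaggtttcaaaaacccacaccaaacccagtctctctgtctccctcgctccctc
Gm51960 start window, chr12:111273687-111273986, minus strand: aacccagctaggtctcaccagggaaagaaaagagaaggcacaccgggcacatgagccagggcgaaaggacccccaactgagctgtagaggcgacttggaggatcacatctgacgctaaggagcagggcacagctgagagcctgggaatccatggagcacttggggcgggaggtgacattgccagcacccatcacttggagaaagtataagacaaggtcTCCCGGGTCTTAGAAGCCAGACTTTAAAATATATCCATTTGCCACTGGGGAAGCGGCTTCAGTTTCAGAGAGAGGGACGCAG
4930447F24Rik start window, chr9:108133468-108133767, plus strand: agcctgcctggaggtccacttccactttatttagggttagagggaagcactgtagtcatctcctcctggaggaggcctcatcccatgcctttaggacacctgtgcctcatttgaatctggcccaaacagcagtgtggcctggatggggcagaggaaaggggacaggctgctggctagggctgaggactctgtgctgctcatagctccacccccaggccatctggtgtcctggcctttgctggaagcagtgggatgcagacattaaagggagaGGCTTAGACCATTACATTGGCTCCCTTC

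The overlaps were 43 bases at Hopxos, 82 bases at Gm51960 and 28 bases at 4930447F24Rik. The Gm51960 stretch contained 3 CpG dinucleotides and the others 0. The Amn region covered the start of Gm51960 itself. The Hopx region ended 208 bp short of the Hopxos start, and that of 4930447F24Rik lay 22 bp past the start in its window.

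Start windows of 4 further genes with an outer promoter region are shown as examples, and windows of other genes described below are not printed. Capitals mark matches on either strand to the motifs searched, the TATA box as TATAAA, the CCAAT box, the GC box as GGGCGG, the interferon-response core GAAANNGAA and the PU.1 core GAGGAAGT.
Cxcl10 start window, chr5:92348840-92349139, minus strand: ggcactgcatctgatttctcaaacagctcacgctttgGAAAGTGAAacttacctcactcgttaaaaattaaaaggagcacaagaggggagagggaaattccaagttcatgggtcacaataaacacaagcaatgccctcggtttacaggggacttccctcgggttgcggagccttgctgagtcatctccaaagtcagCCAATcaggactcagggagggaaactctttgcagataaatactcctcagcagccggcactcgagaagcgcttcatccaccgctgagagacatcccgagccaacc
Ddx58 start window, chr4:40239776-40240075, minus strand: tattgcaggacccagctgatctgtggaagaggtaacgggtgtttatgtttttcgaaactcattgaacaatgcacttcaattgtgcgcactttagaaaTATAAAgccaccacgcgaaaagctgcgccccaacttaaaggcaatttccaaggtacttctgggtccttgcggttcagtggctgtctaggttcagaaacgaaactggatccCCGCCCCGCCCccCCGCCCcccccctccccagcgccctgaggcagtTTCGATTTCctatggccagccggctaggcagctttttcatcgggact
Rnase6 start window, chr14:51123658-51123957, plus strand: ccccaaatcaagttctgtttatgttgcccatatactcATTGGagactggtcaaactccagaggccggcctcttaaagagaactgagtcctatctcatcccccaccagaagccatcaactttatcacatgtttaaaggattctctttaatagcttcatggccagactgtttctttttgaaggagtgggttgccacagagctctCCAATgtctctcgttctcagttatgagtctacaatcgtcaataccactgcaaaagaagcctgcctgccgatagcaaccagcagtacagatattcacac
Fhl2 start window, chr1:43163912-43164211, minus strand: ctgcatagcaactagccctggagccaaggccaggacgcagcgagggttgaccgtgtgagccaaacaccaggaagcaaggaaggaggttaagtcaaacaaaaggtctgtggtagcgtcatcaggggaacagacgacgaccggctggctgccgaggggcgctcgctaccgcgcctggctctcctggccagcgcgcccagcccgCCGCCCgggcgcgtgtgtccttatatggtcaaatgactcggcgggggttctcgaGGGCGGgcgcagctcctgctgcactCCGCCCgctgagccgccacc

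Cxcl10 and Ddx58, both interferon-induced genes of the higher list, held the GAAANNGAA core, while Rnase6, with a region in each list, held CCAAT alone and Fhl2 of the lower list GGGCGG alone. The windows of Mb21d1 and Oas1h, other nucleic acid sensing genes of the higher list, did not hold the core. The outer promoter regions lie outside these 4 windows.

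The members were split between the lists as all regions were. The higher list held 63.7% of outer promoter regions (exact 95% interval 58.9 to 68.3, counting error only), against a background of 64.2% of all 5432 regions listed as higher and 35.8% listed as lower. The share was 63.7% (57.1 to 70.0) at 1 to 2 kb and 63.6% (56.5 to 70.3) at 2 to 3 kb. Upstream of the start it was 64.1% (57.5 to 70.4) and downstream 63.2% (56.1 to 69.9). Regions within 1 kb of a start gave 64.0% (57.9 to 69.8) and those between 3 and 10 kb 62.1% (59.1 to 65.0). Each of these intervals contained the background share.

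**Figure D1:**
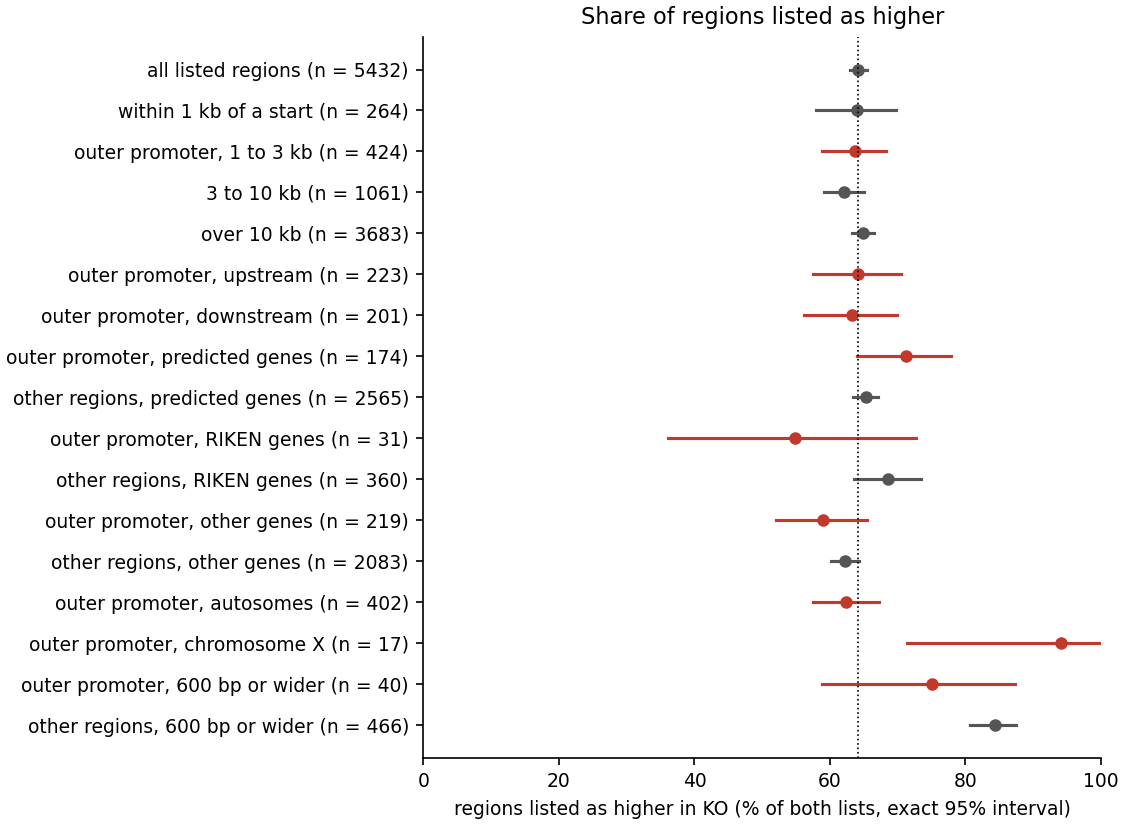
Share of regions listed as higher in KO (%, points, with exact 95% intervals as bars) for outer promoter regions (red) and other sets of listed regions (grey), with the share over all regions as a dotted line. Outer promoter regions lay at 63.7%, beside 64.2% of all regions, while the 17 on chromosome X lay at 94.1%. Other listed regions of chromosome X are not shown as a set.

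Outer promoters made up 7.74% (6.88 to 8.68) of the higher list and 7.92% (6.76 to 9.21) of the lower list. By position there was no step at the class limits. In both lists together 232 regions lay up to 1 kb from a start without touching it, 226 at 1 to 2 kb, 198 at 2 to 3 kb, 199 at 3 to 4 kb and 153 at 4 to 5 kb. A further 22 higher and 10 lower regions overlapped a start. In the higher list 143 members were upstream and 127 downstream of their start, a share upstream of 53.0% (46.8 to 59.0). Of lower regions 80 were upstream and 74 downstream, or 51.9% upstream (43.8 to 60.1). Both intervals contained the upstream shares of all other regions, 47.1% and 47.8%. Bins of 0.5 kb were more uneven. The first 0.5 kb of the downstream band held 42 higher and 14 lower regions, and the next held 28 and 26.

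**Figure D2:**
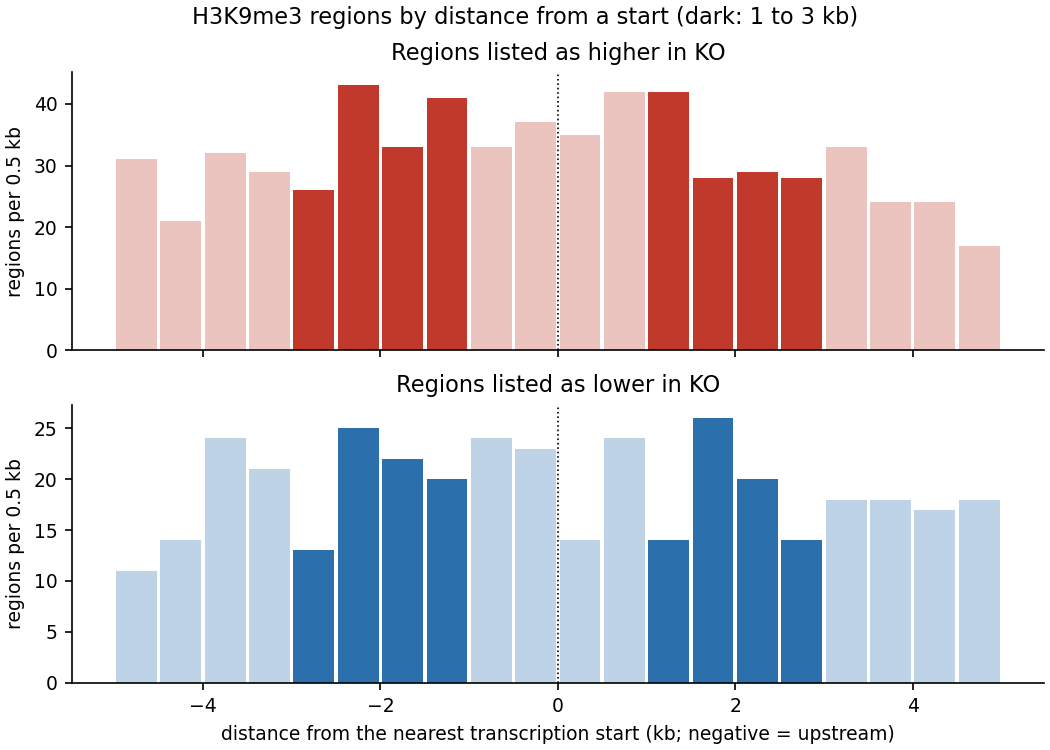
Number of listed regions in bins of 0.5 kb by signed distance from the nearest transcription start (kb, negative upstream), for the higher list above and the lower list below, with the bins of the outer promoter in dark. The dark bins hold between 26 and 43 higher regions and between 13 and 26 lower ones, within the range of the pale bins nearby or close to it. Regions that overlap a start are not plotted.

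Scores of the regions on either side of the class limits varied widely. At the 1 kb limit of the higher list Slc30a2 lay just inside, at 1004 bp with a score of 7.55, and the interferon gene Ifna6 just outside, at 997 bp with 1.69. In that list Gm21738, just outside on the downstream side at 990 bp, scored 680. On the lower list's side 1700125G02Rik lay inside at 1016 bp with 1.58, and Timm8a1 outside at 999 bp with 5.06. At 3 kb the higher list had Zbtb26 inside at 2992 bp (3.17) and Arhgef37 outside at 3017 bp (1.85). The corresponding lower regions were Gm15808 inside at 2995 bp (2.47) and Gm18977 outside at 3037 bp (5.06).

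Some upstream members lay inside another gene, by RefSeq gene bounds, and the shares for other listed regions are not given here. Of 223 upstream regions, 75 (33.6%) were inside another gene, 53 of them inside a protein-coding gene, and 128 (57.4%) inside none. Of 201 downstream regions, 105 (52.2%) lay in the body of their own gene and 66 (32.8%) in none, which includes short transcripts that end before the region and genes with no RefSeq match. The Cxcl10 region lay inside Art3, which encodes an ADP-ribosyltransferase. That of Mb21d1 lay inside Mto1, which encodes an enzyme that modifies mitochondrial transfer RNA, that of Fuca1 inside the cannabinoid receptor gene Cnr2, and that of Reep3 inside Jmjd1c, which encodes a JmjC-domain protein. The Mir7023 region lay inside Pik3cd, the leukocyte phosphoinositide kinase gene, and the Rinl region inside the deacetylase gene Sirt2. All these were in the higher list. In the lower list the Sstr2 region lay inside the zinc transporter gene Slc39a11, the Six4 region inside Mnat1, and the Gpr1 region inside both Gpr1 and Zdbf2. Exons and introns were not annotated for this class.

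Regions of the higher list had the larger median width. Their median width was 413 bp (389 to 433, order-statistic 95% interval), with extremes of 272 and 997 bp. Regions of the lower list had a median of 370 bp (349 to 398), with extremes of 263 and 804 bp. All other regions had medians of 403 and 356 bp, so the same gap was present outside the outer promoter. The widest member, 997 bp, lay 2000 bp downstream of the start of Mei1, a gene of meiotic recombination, in the higher list. Next among named genes, meaning genes that are neither predicted (Gm numbers) nor RIKEN clones, came the microRNA gene Mir344f with 805 bp and the eosinophil granule gene Prg3 with 763 bp, both higher. The widest lower region, 804 bp, was at 2310069B03Rik, followed by the 5S ribosomal RNA gene n-R5s100 (798 bp), Cdh16 (765 bp) and Rnase6 (735 bp). Of 40 members of 600 bp or more, 30 were higher, a share of 75% (58.8 to 87.3), beside 84.3% (80.7 to 87.5) among other regions of that width. The narrowest included Ddx50, Emx1 and Sec24d in the higher list, and Prrg4, Slc35c1 and Hunk in the lower list.

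Peak scores were low and often tied. Higher members had a median of 2.53 (2.52 to 2.82) and lower members one of 2.66 (2.30 to 3.07), beside medians of 2.52 and 2.66 over the whole lists. In the higher list 41 of the 270 members shared the score 1.95, and the 270 members took 60 distinct values. Among lower members the commonest score, 2.22, was shared by 14 of 154. Scores above 5 were held by 25 higher and 19 lower members. In the lower list the median score was 2.26 (2.19 to 2.65) at 1 to 2 kb and 3.10 (2.77 to 3.33) at 2 to 3 kb. It was 2.77 (2.47 to 3.13) within 1 kb and 2.66 (2.47 to 2.77) over 3 and up to 10 kb. The score thus did not rise steadily with distance across these classes. Within the class, Spearman's rho of score with distance over the 154 lower members was 0.226. In the higher list rho was -0.04 over 270 regions. These are descriptions across regions of the same pair of libraries.

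The highest scores belonged to predicted genes. Gm33838 scored 903 at chr9:35305229-35305589 and Gm11168 534 at chr9:3006426-3007322, both in the higher list. Only 7 of the 5432 regions scored above 100, and these 2 were the members among them. All others in the outer promoter were at or below 17.5, the score of Gm24334. The highest score in the lower list was 11.1 at Gm3318. Whether the extreme scores lie on repeated sequence was not tested.

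**Figure D3:**
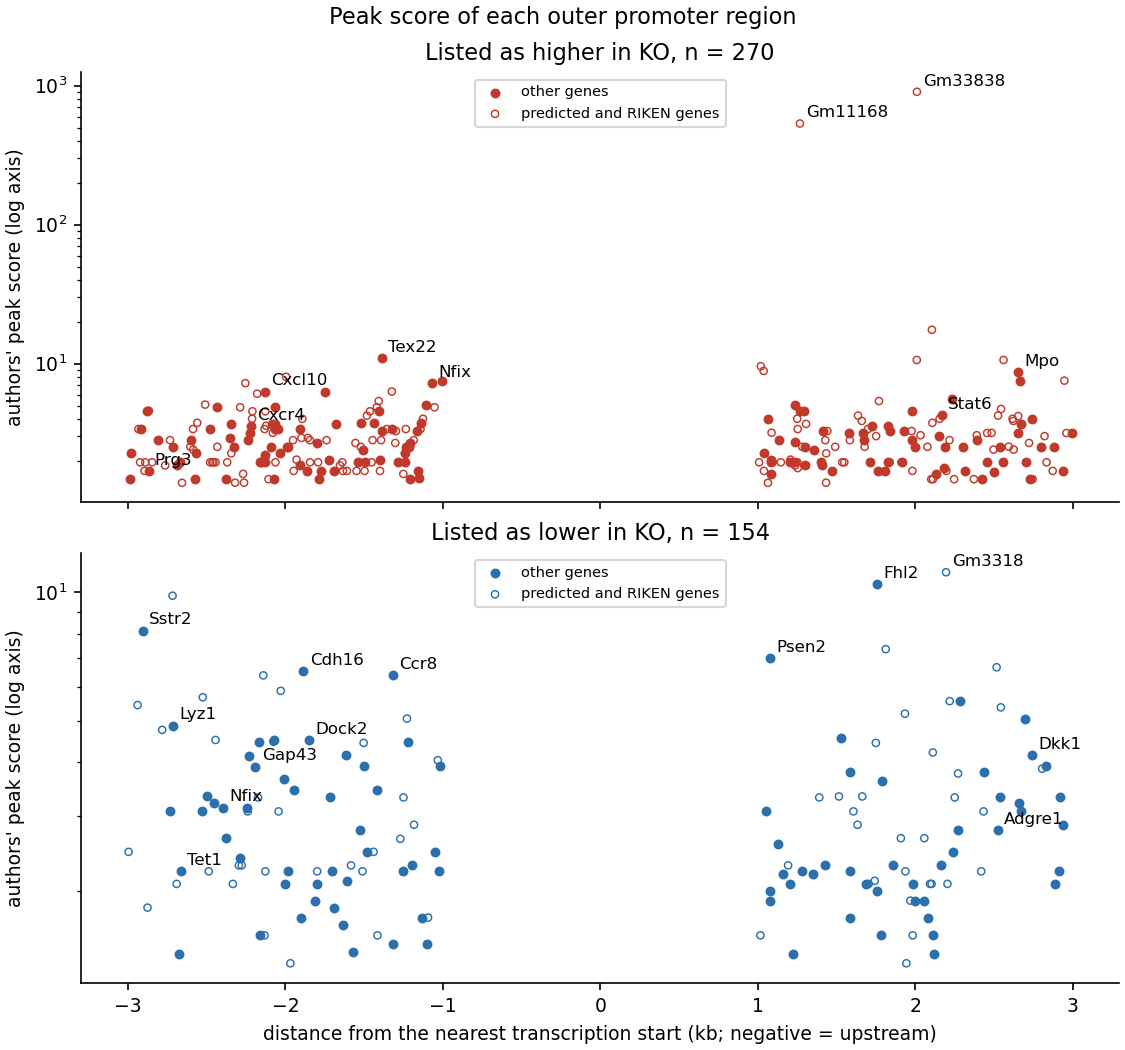
Authors' peak score (log axis) of each outer promoter region by signed distance from its start (kb, negative upstream), in the higher list above (n = 270) and the lower list below (n = 154). Filled points are genes other than predicted and RIKEN genes, which are open. Gm33838 and Gm11168 stand far above all others, and among the filled points Tex22 and Fhl2 are highest in their lists.

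Among genes with a name the higher list was led by Tex22, a testis-expressed gene, with 11.0 at chr12:113072554-113073116, 1386 bp upstream of its start and inside Pacs2. Mpo, the myeloperoxidase of neutrophil granules, followed with 8.70 at chr11:87796859-87797398, 2650 bp downstream in its own gene. Spink2, a protease inhibitor gene active in sperm, and the zinc transporter gene Slc30a2 both scored 7.55. Nfix, a nuclear factor I transcription factor gene of brain and muscle development, scored 7.24. The interferon-induced chemokine gene Cxcl10 and the 5S ribosomal RNA gene n-R5s18 both scored 6.30. Rhox7-ps2, a pseudogene of the reproductive homeobox cluster, scored 5.57, and Serpina3i, a serine protease inhibitor gene, 5.08. The unnamed loci AC154538.2 (5.08) and AC154507.1 (4.86) and the methionine adenosyltransferase subunit gene Mat2b (4.85) completed the leading 12. 

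In the lower list the leading gene with a name was Fhl2, a LIM-domain cofactor gene, with 10.5 at chr1:43161880-43162202, 1759 bp downstream of its start. Sstr2, the somatostatin receptor gene, scored 8.13, 2906 bp upstream. Psen2, which encodes a catalytic subunit of gamma-secretase, scored 7.02, 1079 bp downstream. Cdh16, the kidney cadherin gene, scored 6.54, and Ccr8, a chemokine receptor gene of T cells, 6.39. Spata1 scored 5.57, Mrgpra2b 5.06 and the lysozyme gene Lyz1 4.87. The antisense gene Csmd2os (4.57), Erf, an ETS-family repressor (4.51), Dock2, the Rac activator of migrating leukocytes (4.51), and the segment Ighv13-1 (4.47), tied with Gal3st2 (4.47), followed.

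Genes of chemokine signalling were few. Cxcl10 had a higher region at chr5:92351016-92351355, 2127 bp upstream. Cxcr4, the receptor for CXCL12 that guides microglia and neurons, had a higher region 2218 bp upstream (3.57) and another higher one, intergenic, with a score of 4.40. Ccr8 had a lower region 1315 bp upstream, at chr9:120090342-120090799. The interleukin and chemokine family thus had 2 higher and 1 lower member, against 10 and 6 in all classes, these members included. Nucleic acid sensing and interferon genes had 3 higher and 1 lower member, beside the background of 64.2% higher. Ddx58, which encodes the RNA sensor RIG-I, scored 4.02 downstream of its start, Mb21d1, which encodes the DNA sensor cGAS, 3.19 upstream, and Oas1h of the oligoadenylate synthetase family 2.27 upstream. The interferon gene Ifna13 was lower (2.08). Role groups of this kind were formed after the values were seen, and their counts support no direction.

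Granule, antimicrobial and complement genes were divided, with 3 higher and 3 lower regions in 5 genes, beside the background of 64.2% higher. Prg3, an eosinophil granule protein gene, had a wide region of low score, 1.69, with 9.35% of the higher list scoring below it. Mpo stood near the top of the same list, with 98.4% below it. Lyz1 was lower with its region at chr10:117295580-117295888, 2712 bp upstream. Cfp, the properdin gene of the alternative complement pathway, was lower with 2.22, 1255 bp upstream. Rnase6, an antimicrobial ribonuclease gene, had a region in each list.

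Leukocyte surface, adaptor and migration genes had 5 higher and 2 lower members, beside the background of 64.2% higher. Elmo2, a partner of DOCK proteins in engulfment, was higher (4.54), as were Nckap1l, the haematopoietic subunit of the WAVE actin complex (1.95), Treml1 (3.39), Cd96 (2.93) and Sit1 (1.95). Dock2 was lower, and so was Adgre1, which encodes the macrophage surface protein F4/80 (2.77), 2523 bp downstream at chr17:57361237-57361715. Of 46 genes of activated microglia only Cxcl10 had one, and of 25 genes of border and blood myeloid cells only Mpo. The 21 granule protein genes had Mpo and Prg3. In all classes, members included, these lists had 4 higher and 3 lower, 4 and 2, and 3 and 1 regions.

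Transcription factor genes were found in both lists. Stat6, which carries the interleukin-4 signal in macrophages, was higher with 4.27, 2168 bp downstream at chr10:127645154-127645560. Emx1, a cortical progenitor gene (2.82), Nr3c2, the mineralocorticoid receptor gene (2.53), Smad2 (2.04), Foxn1 (1.95), Msgn1 (1.61) and the B cell gene Pax5 (1.48) were also higher. Erf, Sp9 (3.21), Tead2 (2.47), Pax9 (2.30) and Six4 (2.11) were lower, and Nfix was in both lists. The list of 74 developmental transcription factors had 0 members, beside 6 higher and 5 lower regions in all classes. Among chromatin genes, higher regions lay at Morc1 (2.82), which silences retroelements in germ cells, Resf1 (1.95), which helps to silence retroelements through SETDB1, Psip1 (1.95) and the histone-binding gene Rbbp7 (1.95). Tet1, which oxidises methylated cytosine, was lower (2.22). None of the 47 H3K9 methylation genes or the 32 SWI/SNF genes had a member. In all classes the first of these lists had only 0 higher and 2 lower regions and the second 0 and 0.

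Neuronal and glial genes had 4 higher and 7 lower members, beside the background of 64.2% higher. In all classes, these members included, the same genes had 8 higher and 9 lower regions. The group was formed after the values were seen, so its count supports no direction. Higher regions lay at the teneurin gene Tenm4 (2.82), the scaffold gene Magi2 (2.52), the serotonin receptor gene Htr2c (1.95) and the glial glutamate transporter gene Slc1a3 (1.95). Lower regions lay at Sstr2, Psen2, the growth cone gene Gap43 (3.91), the potassium channel gene Kcnh2 (3.80), the semaphorin receptor gene Plxnc1 (3.45), the sorting receptor gene Sorcs3 (1.58) and Kalrn (1.42). Of 41 neural progenitor and neuron genes Emx1 and Slc1a3 had members. Of 43 axon guidance genes Gap43 and Plxnc1 had members, and of 46 synaptic adhesion genes Magi2 and Tenm4. Of 68 Wnt pathway genes only the inhibitor gene Dkk1 had one, lower with 4.16, 2742 bp downstream at chr19:30546603-30546923. The 34 vascular, stromal and erythroid genes, the 51 imprinted genes and the 47 growth and cell cycle genes had 0. In all classes these lists had 4 higher and 6 lower, 4 and 1, and 7 and 5 regions, and the Wnt list 6 and 3. Over all 14 lists, 11 of 601 genes had members, 8 higher and 3 lower, beside the background of 64.2% higher. In all classes, these members included, the 14 lists had 76 higher and 48 lower regions, and outer promoters made up 7.81% of all listed regions. Counts of 0 or 1 member in a list therefore say little about the outer promoter.

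Families chosen by symbol had few members, and their counts stand beside the background of 64.2% higher. Olfactory receptor genes had 5 higher and 8 lower, while over all classes, these members included, they had 23 and 13. Lower members included Olfr578, Olfr584 and Olfr66 on chromosome 7, 1019, 1049 and 1980 bp upstream of their starts, with scores of 3.92, 2.47 and 2.22. The highest in the other direction was Olfr1211 (3.18). Solute carrier genes had 4 higher, led by Slc30a2, and 3 lower, led by the GDP-fucose transporter gene Slc35c1 (3.45). Adhesion and orphan G protein-coupled receptor genes had 0 higher and 3 lower, Adgrf5 (3.33), Adgre1 and Gpr1 (1.90). Over all classes, these members included, they had 11 and 10. Immunoglobulin segments had Ighv1-67 (2.21) higher and Ighv13-1 and Ighv1-25 (1.66) lower. Testis-expressed genes had Tex22 and Rhox7-ps2 higher and Spata1 lower, and transmembrane protein genes had Tmem154 (2.27) and Tmem64 (1.95) higher and Tmem229a (3.92) lower. Zinc finger genes had Zbtb26 (3.17) and Zbtb10 (2.41) higher and Zfp418 (3.80) lower, and cytochrome P450, defensin and histone genes had 0. In all classes cytochrome P450 genes had 8 higher and 7 lower regions, defensin genes 0 and 3, and histone genes 1 and 0. Duplicated genes such as olfactory receptors share sequence, and no source used here says how reads with several matching sites were placed.

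MicroRNA genes had 4 higher and 3 lower members, while over all classes, members included, they had 42 and 27. Mature sequences from RefSeq (GRCm38.p6) are printed for 6 of them, with the seed, bases 2 to 8, in capitals, because the seed is the stretch that pairs with target transcripts.
mmu-miR-344f-3p, Mir344f, higher list: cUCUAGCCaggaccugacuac
mmu-miR-344f-5p, Mir344f, higher list: aGUCAGUCuccuggcuggaguc
mmu-miR-6351, Mir6351, higher list: uAGCGUUGcucagggagcacaug
mmu-miR-7023-3p, Mir7023, higher list: uCACCCUGucugcgccccucag
mmu-miR-7211-5p, Mir7211, higher list: uCUUUCCCucugccacuccacc
mmu-miR-683, Mir683-2, lower list: cCUGCUGUaagcuguguccuc
mmu-miR-8094, Mir8094, lower list: aACUGAAGgacaacgagaaga

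The 7 printed seeds were all different. Mature sequences that are not printed, among them that of Mir122, were not compared. In the higher list Mir6351 scored 2.82, 1978 bp downstream, Mir344f 2.52, 1992 bp upstream, Mir7023 2.27, 2036 bp upstream, and Mir7211 1.66, 2499 bp downstream. Lower were Mir683-2 with 2.22, 1583 bp downstream, and Mir8094 with 1.58, 2114 bp downstream. No region overlapped its mature microRNA, which follows from the 1 kb limit and the short length of such genes.

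The seventh was Mir122, which encodes the abundant microRNA of liver. It was lower with 2.47, 1480 bp upstream of its start.

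Pairs of regions with opposite direction stood close together at some genes. Rnase6 had a higher region at chr14:51120615-51121223, 2685 bp upstream (1.85), and a lower one at chr14:51121460-51122194, 1714 bp upstream (3.31), with 236 bp between them. Nfix had a higher region at chr8:84801415-84801808, 1071 bp upstream (7.24), and a lower one at chr8:84802739-84803056, 2395 bp upstream (3.13), with 930 bp between them. Another lower region of Nfix, 15 bp upstream of the start of a different transcript and so no member, scored 2.99. The predicted gene Gm43485 had a higher region 1019 bp downstream (9.59) and a lower one 2295 bp upstream (2.30). These were the 3 genes with members in both lists. A further 2 genes had 2 members in the higher list, Gm31450, 2387 bp apart, and Gm38642, at the starts of different transcripts.

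Of 419 genes, 52 (12.4%, 9.41 to 16.0) had another listed region, beside 12.1% of the 4322 listed genes with no outer promoter region. In 27 of the 52 (51.9%, 37.6 to 66.0), beside 50.9% of such other genes, the regions were in both lists, in 21 in the higher list alone and in 4 in the lower list alone. Of the 28 named genes with another listed region, 18 had regions in both lists. Dock2 had a lower outer promoter region and a higher one in an intron (1.48). Sstr2 had a lower outer promoter region and a higher intergenic one 9231 bp upstream (1.69). A lower outer promoter region with a higher region elsewhere was also found at Gap43, Kalrn, Ablim1, Dync1i1, Pax9 and Optn, the autophagy receptor gene. Pax9 had its lower region at 1858 bp and a higher one with 5.39 in an intron. Abcc12, Adamts3, Btbd35f25, Ica1, Magi2, Slc5a11, Smad2 and Tox3 had a higher outer promoter region and at least 1 lower region elsewhere. Tgm2, the tissue transglutaminase gene, had 2 lower regions, in its outer promoter (4.13) and an intron (3.80). Slc35c1 also had 2 lower regions, the second intergenic, while Cxcr4, Hnrnpc and Sit1 were among the genes with 2 higher ones. Where another listed region lay within 10 kb, the nearest was in the same list for 9 of 12 higher members (75%, 42.8 to 94.5) and 2 of 9 lower members (22.2%, 2.81 to 60.0). For all other regions these shares were 54.5% (45.7 to 63.1) of 134 and 37.8% (27.8 to 48.6) of 90, inside the wide intervals of the members.

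**Figure D4:**
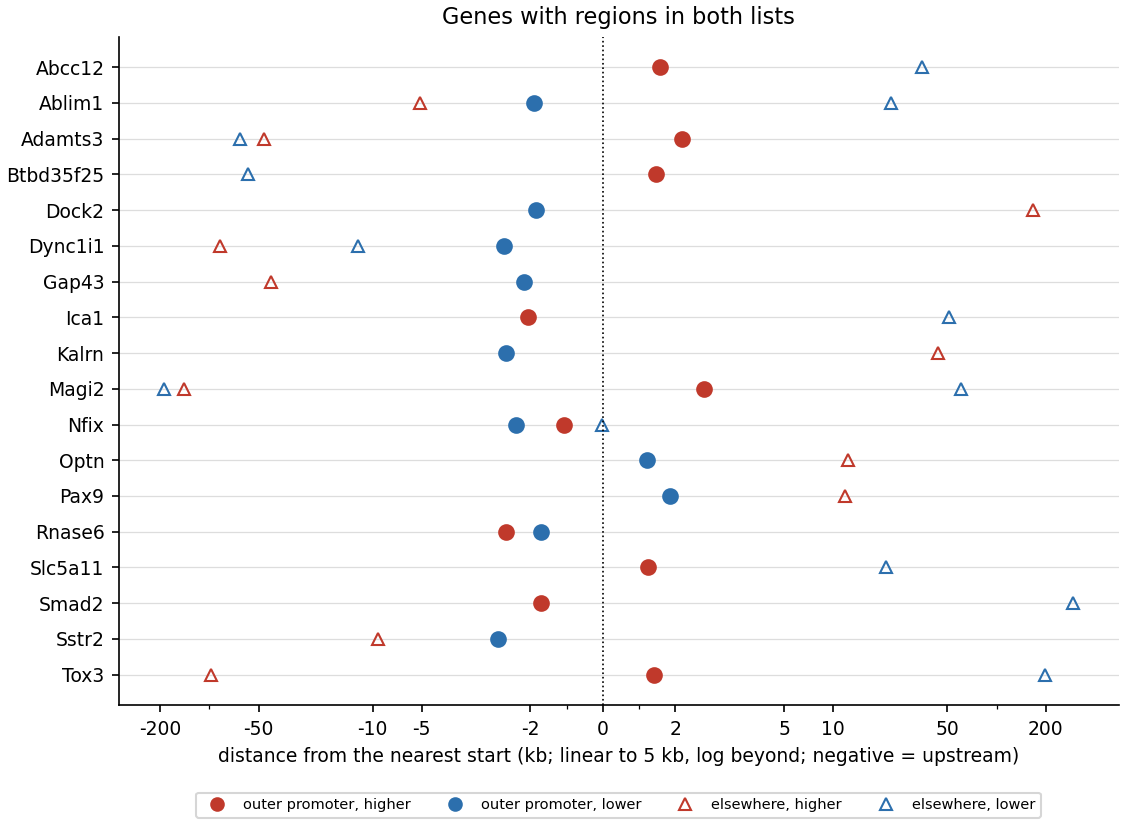
Signed distance from the nearest start (kb, linear to 5 kb and logarithmic beyond, negative upstream) of every listed region of the 18 genes, other than predicted and RIKEN genes, that had an outer promoter region and regions in both lists. Filled circles are outer promoter regions and open triangles are other regions, red for higher and blue for lower in KO. Nfix and Rnase6 have a red and a blue circle side by side.

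By kind of gene the shares listed as higher were as follows, beside the background of 64.2%. Of 174 members at predicted genes 124 were higher, 71.3% (63.9 to 77.9), and of 219 members at genes that were neither predicted nor RIKEN clones 129 were higher, 58.9% (52.1 to 65.5). RIKEN clones had 17 higher and 14 lower, 54.8% (36.0 to 72.7). Outside the outer promoter the shares were 65.3% (63.4 to 67.1), 62.3% (60.1 to 64.4) and 68.6% (63.5 to 73.4). The intervals of predicted and other members overlap and both contain the background, and the difference was not tested. In the higher list 70 of 270 members (25.9%, 20.8 to 31.6) had a symbol with no RefSeq match, and in the lower list 20 of 154 (13%, 8.12 to 19.3). Among matched members 58.5% of the higher and 57.5% of the lower list were at protein-coding genes, 16.5% and 17.9% at long non-coding RNA genes. Symbols were matched for members alone, so no share over all listed regions stands beside these values. Whether the lists differ in the same way outside the outer promoter was not tested.

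Chromosome X held 17 members, of which 16 were higher (94.1%, 71.3 to 99.9), against 62.4% (57.5 to 67.2) on the autosomes. The X members with a name in the higher list were n-R5s18, Rhox7-ps2, the tumour antigen gene Trap1a (3.76), the dynein light chain gene Dynlt3 (3.28), Htr2c, Rbbp7, Zmym3 (1.95) and Btbd35f25 (1.69). The sole lower one was Cfp. Chromosome 15 had 10 higher and 0 lower members, and chromosome 8 had 13 and 17. Chromosomes were singled out after their values were seen. The shares over all listed regions of these chromosomes are not given here, so the values are not particular to the outer promoter.

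A RefSeq window whose start lay within 100 bases of the start given by the authors was found for 143 of 424 members, 88 higher and 55 lower. A CpG ratio (observed over expected) above 0.6 was found in 35.6% (25.6 to 46.6) of the 87 different windows of the higher list and 30.9% (19.1 to 44.8) of the 55 of the lower list, beside 35.8% of all 32851 windows. For all other higher regions the share was 36.9% (33.6 to 40.4), and for all other lower regions 44.5% (39.9 to 49.2). TATAAA was present in 16.1% and 10.9% against 13.6%, GGGCGG in 39.1% and 41.8% against 35.7%, and CCAAT in 40.2% and 49.1% against 37.4%. The interferon-response core was present in 11.5% and 7.27% against 8.56%, and the PU.1 core in 1.15% and 3.64% against 3.20%. The 10 higher genes with the interferon-response core were Cd96, Cxcl10, Ddx58, Dhrs3, Gm38048, Mdfi, Msgn1, Olfr45, Taar8b and Ucma, and the 4 lower ones Gal3st2, Lyz1, Noc3l and Plxnc1. Such matches describe letters in a window and not binding.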

How the data were processed

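H3K9me3 and IgG CUT&Tag libraries were made from sorted microglia, 1 per genotype, with 14 PCR cycles, per the labels' protocols. CASAVA 1.4, Bowtie2 2, FastQC and mm9 are listed, with no role or order, per the submitters' processing notes. For the peak caller, the rule behind each list and the use of IgG, the text is not given in the sources used here. Each deposited row gives a region, the authors' peak score on an unstated scale, a class and the nearest start with its distance. Depth per library is unknown, and unequal depth can change which regions are listed.

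Coordinates are printed as the lists give them. Of 334 member rows with a RefSeq match, the transcript of 333 overlapped the GRCm38 gene, so they were read as GRCm38. If regions were placed on mm9 and annotated on GRCm38, distances would be wrong. The highest score in the lists, 4950, lay on Gm10800 itself, at distance 0. The authors' distance was the gap from the nearer region edge to the start in 424 of 424 rows.

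Members, gene lists, families and motifs were chosen with earlier results of these data known. Genes were named by a rule: in each list the 12 highest-scoring members other than predicted and RIKEN genes, members of the 14 lists, genes with several members or regions in both lists, the 3 widest and 3 narrowest, those nearest the class limits, members of families with at least 3, the highest predicted gene and Prg3. Role groups, genes that contain a region, and chromosome X were chosen with their values in view. Some genes that the rule selects are given as counts. Results for some genes are not reported here. No test was made between genotypes. Shares have exact Clopper-Pearson intervals and medians have order-statistic intervals, both at 95%. They were tried on simulated independent regions with untied values, so that trial does not cover tied scores or regions that depend on each other. Intervals came from scipy 1.17.1, tables from pandas 2.3.3 and numpy 2.4.6, and plots from matplotlib 3.10.9, under Python 3.11.15.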

Additional observations from a re-analysis of the deposited data

How the results depend on the processing

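Of 72 values (9 results under 8 alternatives), 59 stayed within their interval or, for counts, within 1.5 times the main count, and 13 moved. The share of members listed as higher stayed within 58.9 to 68.3% under all 8. Without predicted and RIKEN genes it fell from 63.7% to 58.9%, at the lower limit itself. Membership by distance alone gave the same regions, so that alternative could not move any value. Merging within 10 kb left 269 and taking each gene once 268 of 270 higher members, so these could move values little. Counts under the score cut, in each band and without predicted and RIKEN genes fell because these settings keep a part of the members. The tally of values that stayed or moved was thus largely fixed by the choice of settings. Among members at or above the median score of their list, 155 were higher and 78 lower, the median scores were 3.39 and 3.89 by construction, and the median width in the lower list was 349 bp. Without predicted and RIKEN genes 129 and 90 remained. The band of 1 to 2 kb held 144 and 82 regions and that of 2 to 3 kb 126 and 72. The lower list's median score was 2.26 in the inner and 3.10 in the outer band, and the cause was not tested. It was 2.77 within 1 kb and 2.66 over 3 and up to 10 kb. No paired analysis was possible because each genotype had 1 H3K9me3 library, and no replicate could be left out. The lists hold neither counts nor a value per library, so what depth limits is unknown.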
